A study of Homo sapiens with 32 samples.

Results

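The intervals described here are the stretches of the human genome that were enriched in uracil both in non-treated HCT116 cells and in HCT116 cells treated with raltitrexed (RTX). They were chosen by the deposited region files themselves. A base was taken when it lay in a region of the merged NT_UGI file and in a region of the merged RTX_UGI file on chromosomes 1 to 22. Adjacent bases were joined, and intervals of at least 500 bp were kept. This gave 5859 shared intervals with a total length of 12.3 Mb, out of 137227 intervals of that length in either file. The rest were 82728 intervals (302 Mb) found in the NT_UGI file alone and 48640 intervals (494 Mb) found in the RTX_UGI file alone. Shared bases made up 3.83% of the 320 Mb of NT_UGI regions, 2.40% of the 511 Mb of RTX_UGI regions and 0.445% of the known bases of the 22 autosomes.

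The regions come from U-DNA-Seq, in which DNA fragments that carry uracil are captured with an engineered glycosylase that binds uracil without cutting it and carries a FLAG tag, and sequenced beside the input DNA. A region is a stretch where coverage of the pull-down over that of the input, in log2 units, lies above a threshold that the authors set for each library. HCT116 is a colon cancer line deficient in mismatch repair (MMR), and the MMR proficient line used here is HCT116 with an added chromosome 3. The groups were non-treated cells without transgene (WT), non-treated cells with UGI, a phage protein that blocks the cell's own uracil-removing glycosylase (NT_UGI), and the MMR proficient counterpart (NT_UGI_MMR). The treated cells all carried UGI. The 5FdUR_UGI and 5FdUR_UGI_MMR cells received 5-fluoro-2′-deoxyuridine (5FdUR) at 20 µM, and the RTX_UGI and RTX_UGI_MMR cells received RTX at 100 nM, each for 48 h. UGI came with EGFP from a retrovirus, and transduced cells were collected by sorting. There were 2 biological replicates of each HCT116 group, and 1 library of K562, a leukaemia line without transgene or drug.

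Uracil enters DNA when polymerases use dUTP in place of dTTP or when cytosine loses its amino group, and uracil-DNA glycosylase removes it as the first step of base excision repair. Thymidylate synthase turns dUMP into dTMP. RTX, an antifolate, and the phosphorylated form of 5FdUR both inhibit this enzyme, which raises the supply of dUTP relative to dTTP and hence the uracil placed opposite adenine.

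The sequences of a few shared intervals are given first, because their base composition and repetition recur in the results. All are from GRCh38 and the plus strand, and each is the central 200 bases of its interval. The first pair comes from the longest shared interval, chr16:10695801-10724200, which overlaps no protein-coding gene and lies 871 bp from TEKT5, and from the longest interval covered by at least 50% in all 10 libraries that the choice did not use, chr7:97958301-97965500, 19187 bp from OCM2. Capitals mark the word AATATCACAG or its complement CTGTGATATT, the 10-base word that both intervals carry most often.

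Longest shared interval, chr16:10709901-10710100: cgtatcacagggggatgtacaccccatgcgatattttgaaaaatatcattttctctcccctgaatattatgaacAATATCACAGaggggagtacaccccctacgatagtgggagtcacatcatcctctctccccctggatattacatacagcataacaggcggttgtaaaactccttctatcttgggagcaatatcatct
Interval covered in all 10 libraries, chr7:97961801-97962000: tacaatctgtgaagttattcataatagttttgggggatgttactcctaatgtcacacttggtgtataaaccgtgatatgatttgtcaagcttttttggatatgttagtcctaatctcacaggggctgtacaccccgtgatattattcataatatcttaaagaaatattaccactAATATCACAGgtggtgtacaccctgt

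The second pair shows the range of base composition among shared intervals of at least 2 kb, with C and G in capitals. The interval of the lowest GC content (13.7%) lies in an intron of GABRG3, a GABA-A receptor subunit, and that of the highest (47.2%) in an intron of FAIM2, an inhibitor of apoptosis. The centres of the longest interval of the NT_UGI file alone, in RIMS1, and of the RTX_UGI file alone, over C6orf89 and neighbouring genes, follow for comparison.

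Lowest GC content, chr15:27307151-27307350: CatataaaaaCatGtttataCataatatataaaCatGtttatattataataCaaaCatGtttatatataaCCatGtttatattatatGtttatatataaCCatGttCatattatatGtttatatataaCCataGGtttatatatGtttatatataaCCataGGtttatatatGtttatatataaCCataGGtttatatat
Highest GC content, chr12:49879401-49879600: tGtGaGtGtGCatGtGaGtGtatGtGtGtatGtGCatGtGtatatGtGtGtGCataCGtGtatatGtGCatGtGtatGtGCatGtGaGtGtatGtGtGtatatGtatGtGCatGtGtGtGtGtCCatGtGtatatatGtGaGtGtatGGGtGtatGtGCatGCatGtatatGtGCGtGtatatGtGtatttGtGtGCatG
NT_UGI alone, chr6:72251551-72251750: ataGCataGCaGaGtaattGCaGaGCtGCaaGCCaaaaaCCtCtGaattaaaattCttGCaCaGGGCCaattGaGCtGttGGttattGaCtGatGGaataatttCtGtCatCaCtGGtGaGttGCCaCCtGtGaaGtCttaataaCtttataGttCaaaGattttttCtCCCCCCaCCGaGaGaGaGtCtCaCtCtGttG
RTX_UGI alone, chr6:36832251-36832450: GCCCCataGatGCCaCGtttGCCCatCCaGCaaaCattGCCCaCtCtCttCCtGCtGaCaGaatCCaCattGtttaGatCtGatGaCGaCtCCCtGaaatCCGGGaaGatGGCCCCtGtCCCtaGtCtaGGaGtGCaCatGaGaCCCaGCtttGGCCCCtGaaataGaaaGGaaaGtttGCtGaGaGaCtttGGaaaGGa

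The shared intervals were AT-rich like the non-treated regions, but lay within genes like the regions of RTX treated cells. Their GC content was 34.1% over all bases, against 33.2% in the intervals of the NT_UGI file alone, 45.6% in those of the RTX_UGI file alone and 41.0% over the autosomes. Protein-coding genes held 65.0% of the shared bases, 34.1% of the NT_UGI bases, 57.2% of the RTX_UGI bases and 45.3% of the autosomes. Exons of protein-coding genes held 8.15% of the shared bases, close to the 8.09% in the intervals of the RTX_UGI file alone, whereas the NT_UGI intervals held 1.79%. Bases within 1 kb of a start made up 0.443% of the shared intervals, 0.154% of the NT_UGI intervals, 2.58% of the RTX_UGI intervals and 1.27% of the autosomes. These values describe the chosen set and carry no test. A single GC limit did not separate the sets: 541 shared intervals (9.23%) had a GC content of at least 40%, as did 66.5% of the RTX_UGI intervals and 5.32% of the NT_UGI intervals.

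**Figure D1:**
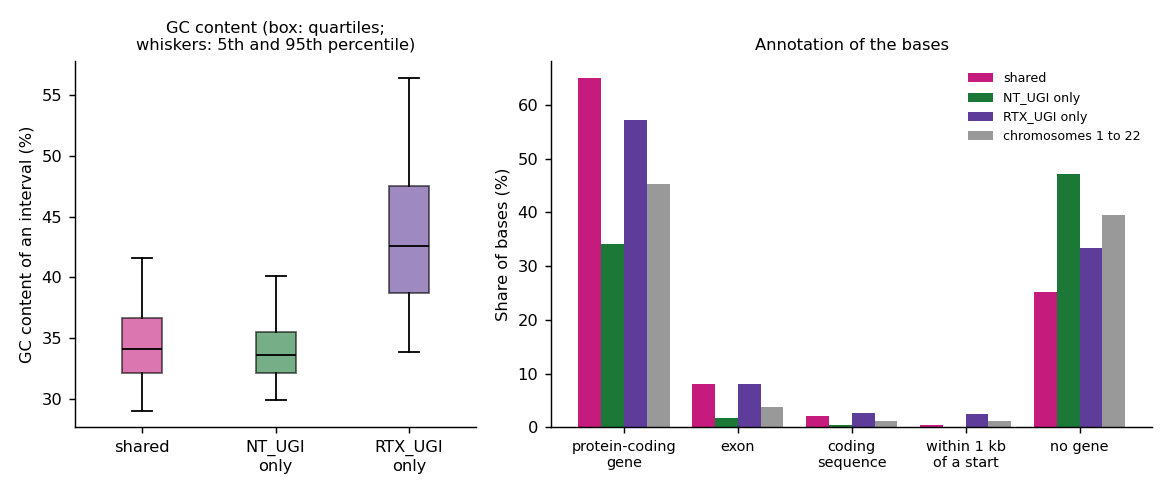
GC content of single intervals (left; box from the first to the third quartile, line at the median, whiskers at the 5th and 95th percentiles) and share of bases by annotation (right, %) for the shared intervals, the intervals of one file alone and chromosomes 1 to 22. The shared intervals sit at the GC content of the NT_UGI intervals, with a median of 34.1% against 33.6%, and at a gene share of 65.0%, above the RTX_UGI intervals.

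The combination was examined in libraries that took no part in the choice. In each of the 4 other non-treated libraries, bases outside the shared intervals were divided by whether they also lay in the merged RTX_UGI_MMR file. In WT replicate 1, 68.0% of the 13.8 Mb that did lay in protein-coding genes, against 34.6% of those that did not. The corresponding shares were 67.7% and 35.1% in WT replicate 2, 67.8% and 34.5% in NT_UGI_MMR replicate 1, and 67.1% and 34.8% in NT_UGI_MMR replicate 2. All 4 libraries showed the higher gene share where non-treated and RTX regions met, but all 4 divisions used the same RTX_UGI_MMR file. RTX regions are rich in genes by themselves, with 57.2% in the RTX_UGI intervals. RTX_UGI_MMR regions outside the non-treated regions were not examined. The GC content of the bases that met was between 35.1% and 35.4%, against 33.6% to 33.8% for the rest.

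The shared intervals were short, with a median length of 1400 bp and a 90th percentile of 4600 bp. There were 468 of at least 5 kb and 36 of at least 10 kb. The authors had smoothed the coverage over 5000 bp, so most intervals were shorter than the smoothing length and their edges depend on the thresholds. A shared interval was a whole NT_UGI region in 3732 cases (63.7%), and 3638 intervals (62.1%) lay strictly inside a longer RTX_UGI region. The 5859 shared intervals lay in 4287 RTX_UGI regions. Over the shared intervals, the RTX_UGI region that held the interval had a median length of 10100 bp. A region with several intervals counts several times in this median. The median over all RTX_UGI regions, of any length and each counted once, was 1400 bp, so the 2 medians are not like for like. At the length limit, the 460 intervals of exactly 500 bp were covered by 41.0% on average in the 4 independent non-treated libraries and by 30.6% in the 6 independent drug-treated libraries. The 583 shared stretches of 400 bp, just below the limit, were covered by 41.7% and 28.6%. The regions of the 2 merged files began at log2 values of 0.33 (NT_UGI) and 0.25 (RTX_UGI).

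The surroundings of the intervals resembled those of the RTX_UGI intervals in RTX coverage, but not in WT coverage, 5FdUR_UGI coverage or GC content. In windows of 100 kb around a shared interval, the merged RTX_UGI_MMR regions covered 56.9% of the bases on average, against 2.89% around the NT_UGI intervals and 52.9% around the RTX_UGI intervals. The merged WT regions covered 12.4%, 27.9% and 3.27% of the same windows, and the merged 5FdUR_UGI regions 32.1%, 3.28% and 43.7%. GC content in these windows had a median of 38.9%, between the 36.3% around NT_UGI intervals and the 43.0% around RTX_UGI intervals. Within 5 kb on either side of the centre, WT coverage rose to between 29.5% and 29.8%, from 9.20% and 9.26% at 52.5 kb, and RTX_UGI_MMR coverage to between 63.9% and 64.0%, from 52.9% and 52.8%. The 5FdUR profiles dipped at the same place. The merged 5FdUR_UGI regions covered 34.6% and 34.4% at 52.5 kb from the centre and between 24.5% and 24.8% next to it, and the 5FdUR_UGI_MMR regions 17.8% and 18.3% at 52.5 kb and between 10.6% and 11.1% next to it. The merged files pool the replicates, so these profiles have no error, and the height at the centre of the non-treated and RTX profiles partly reflects how the intervals were chosen. The choice also favours high RTX coverage in the windows around shared intervals, most of which lay inside longer RTX_UGI regions. It favours low RTX coverage around the NT_UGI intervals, which were taken for absence from the RTX_UGI file.

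The main comparison asked how the shared intervals fared in the conditions that did not choose them. The covered share of an interval set is the percentage of its bases that lie in the regions of a library. In non-treated cells the shared intervals were covered by 55.0% and 54.1% in WT replicates 1 and 2 and by 54.5% and 54.0% in NT_UGI_MMR replicates 1 and 2. In RTX_UGI_MMR the share was 73.2% and 60.9%. In 5FdUR_UGI it was 20.0% and 15.0%, and in 5FdUR_UGI_MMR 5.95% and 9.92%. The 4 non-treated libraries were nearly equal, both RTX_UGI_MMR libraries were above all of them and the 4 libraries of 5FdUR treated cells were below all of them. For reference, the libraries that chose the intervals had 79.5% and 67.2% (NT_UGI) and 88.6% and 84.4% (RTX_UGI), and K562 had 55.1%.

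Because the drug-treated libraries lay on both sides, their mean of 30.8% ± 28.7 (SD, n = 6) did not differ from the non-treated mean of 54.4% ± 0.431 (SD, n = 4) beyond the spread. The difference was −23.6 percentage points, with a two-sided exact permutation p = 0.171 (0.214 after Benjamini-Hochberg adjustment over 5 tests). Leaving out RTX_UGI_MMR replicate 1 moved it to −32.1 points with an exact p = 0.0476 before adjustment. A comparison of the 2 drugs was added after the values were seen. The 5FdUR libraries, at 12.7% ± 6.09 (SD, n = 4), were compared with RTX_UGI_MMR, at 67.0% ± 8.74 (SD, n = 2). The difference was −54.3 points, without overlap. It is given as a description, because the intervals were chosen for lying in RTX_UGI regions, which favours RTX_UGI_MMR. The RTX_UGI intervals, chosen likewise, had means of 31.5% after 5FdUR and 71.0% in RTX_UGI_MMR. The means of 5FdUR_UGI and 5FdUR_UGI_MMR differed by 9.55 points, also without overlap, in a comparison of 2 against 2 that no exact test can bring below the threshold of 0.05. The difference was 15.7 points with regions of a log2 value of at least 0.4 only.

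**Figure D2:**
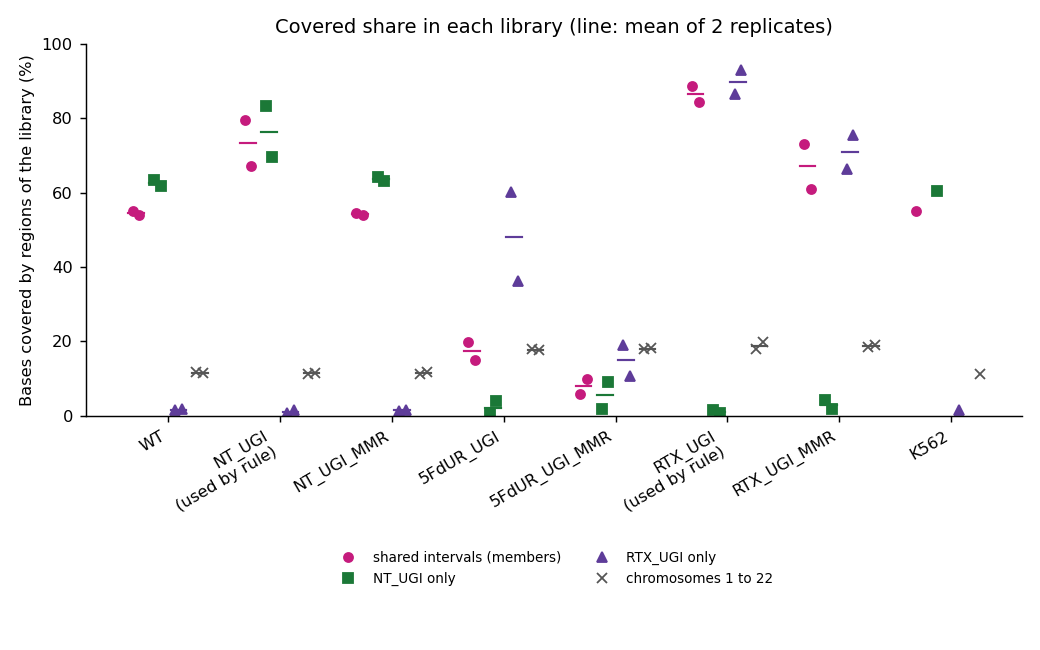
Share of bases (%) covered by the regions of each library for the shared intervals, the intervals of one merged file alone and chromosomes 1 to 22; a point is 1 library and a line the mean of 2 replicates. The shared intervals stay between 54.0% and 55.0% in the 4 independent non-treated libraries, at 60.9% and 73.2% in RTX_UGI_MMR, and at 5.95% to 20.0% after 5FdUR.

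The regions of a library covered between 11.3% and 11.6% of the autosomes in the 4 independent non-treated libraries and between 17.6% and 18.9% in the 6 drug-treated ones, totals that the authors' thresholds fix. Relative to this, the shared intervals were covered 4.73-fold and 4.72-fold more than the autosomes in WT, 4.82-fold and 4.65-fold in NT_UGI_MMR, and 3.94-fold and 3.22-fold in RTX_UGI_MMR. The ratio was 1.11 and 0.853 in 5FdUR_UGI and 0.332 and 0.546 in 5FdUR_UGI_MMR. Shared intervals were therefore at about the level of the genome after 5FdUR in MMR deficient cells and below it in both libraries of MMR proficient cells. Over the 10 libraries the mean log2 ratio was 1.01 ± 1.49 (SD), above 0 in 7 of 10, which did not pass the exact sign permutation test (p = 0.0781, adjusted 0.208). Without both 5FdUR_UGI_MMR libraries, which had the lowest ratios, it was 1.57, with an exact p = 0.0234 before adjustment. The choice by NT_UGI and RTX_UGI regions favours a log2 ratio above 0 in the non-treated and RTX_UGI_MMR libraries. Neither p-value is therefore evidence of enrichment.

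In each of the 4 non-treated libraries they lay below the NT_UGI intervals, with differences of −8.35 and −7.77 percentage points in WT and −9.68 and −9.22 points in NT_UGI_MMR. The mean difference was −8.75 ± 0.858 points (SD, n = 4), and its exact p of 0.125 (adjusted 0.208) is the smallest that 4 libraries allow. In the drug-treated libraries they lay below the RTX_UGI intervals in 5 of 6. After 5FdUR the difference was −40.1 and −21.3 points (5FdUR_UGI) and −13.1 and −0.791 points (5FdUR_UGI_MMR), and in RTX_UGI_MMR it was 6.75 and −14.7 points. The mean of −13.9 ± 16.4 points (SD, n = 6) did not pass (exact p = 0.0938, adjusted 0.208). The sets differ in length, with medians of 1400 bp (shared), 2400 bp (NT_UGI) and 2700 bp (RTX_UGI). In the non-treated libraries, shared intervals under 800 bp were covered by 40.6% to 43.9% and those from 2700 bp by 59.1% to 61.4%. Length was not matched. With a minimum length of 2000 bp for all sets, the mean differences were −7.60 and −13.7 points. 5FdUR_UGI_MMR replicate 2 covered 9.20% of the NT_UGI intervals, against 0.424% to 4.30% in the other 5 drug-treated libraries, and its regions began at the lowest log2 value, 0.13.

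The strength of the regions at shared bases differed little from that elsewhere. The mean log2 value of the covering regions minus the mean over all regions of the library was 0.0093 and 0.013 in WT, 0.0047 and 0.011 in NT_UGI_MMR, and −0.013 and −0.030 in 5FdUR_UGI. In 5FdUR_UGI_MMR the difference was −0.0086 and −0.011, and in RTX_UGI_MMR 0.029 and −0.0046. The mean over the 10 libraries was −0.00010 ± 0.017 (SD, log2), with an exact sign permutation p = 0.984, and its sign depended on which intervals and libraries entered. All 4 non-treated values were above 0 and all 4 values after 5FdUR below it.

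Interval by interval, coverage varied between libraries. By the limit of 50% of an interval's bases, 952 shared intervals (16.2%) were covered in all 4 independent non-treated libraries, against 21.7% of the NT_UGI intervals. Both RTX_UGI_MMR libraries covered 3003 (51.3%), against 39.9% of the RTX_UGI intervals. Both conditions together held for 399 shared intervals (6.81%). The same held for 191 of the NT_UGI intervals (0.231%) and 40 of the RTX_UGI intervals (0.0822%), all counted in 6 libraries that the choice did not use. The choice still favours this gap, because these libraries are of related conditions. The NT_UGI and RTX_UGI intervals were each taken for absence from the other file. All 4 libraries of 5FdUR treated cells covered 37 shared intervals (0.632%) by at least 50%, whereas 3281 (56.0%) were covered by under 10% in all 4. Among the NT_UGI intervals these shares were 0.0338% and 72.8%, and among the RTX_UGI intervals 6.78% and 32.1%. A shared interval was covered in a median of 4 of the 10 libraries. All 10 covered 10 shared intervals (0.171%), 1 of the 82728 NT_UGI intervals and 0 of the 48640 RTX_UGI intervals, and 100 shared intervals were covered in none. The choice favours the shared intervals in this count too.

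Counts of intervals without overlap between treated and non-treated libraries were low in both directions. The covered share was lower in all 6 drug-treated than in all 4 non-treated libraries at 362 shared intervals (6.18%), against 22.1% of all 137227 intervals. It was higher in all 6 at 6 shared intervals (0.102%), against 5.09% of all intervals. Of the NT_UGI intervals 36.2% were lower, and of the RTX_UGI intervals 14.3% were higher. Each of those sets was taken for absence from the other file. The choice thus favours low counts among shared intervals. Most shared intervals fell in neither class. The count in either direction rose from 368 to 665 without RTX_UGI_MMR replicate 1.

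Coverage after the drugs differed by position relative to genes. Of the shared intervals, 3822 lay within protein-coding genes (7.97 Mb) and 2037 outside (4.28 Mb). In 5FdUR_UGI, those within genes were covered by 12.7% and 9.28% and those outside by 33.4% and 25.7%. In 5FdUR_UGI_MMR the shares were 3.13% and 6.43% within genes and 11.2% and 16.4% outside. In RTX_UGI_MMR the order turned, with 76.3% and 62.3% within genes and 67.5% and 58.1% outside. In the 4 non-treated libraries the difference, within minus outside, was between −2.99 and −1.11 percentage points. These differences were not tested. Coverage also differed by base composition. Shared intervals below the first quartile of GC content (32.1%) were covered by 64.2% to 69.7% in the non-treated libraries and by 2.61% to 12.7% after 5FdUR, and those from the third quartile (36.7%) by 43.8% to 47.6% and by 13.3% to 36.7%. In RTX_UGI_MMR those below the first quartile were at 68.8% and 53.1% and those from the third at 70.8% and 64.5%. The GC content of intervals within and outside genes was close, 34.0% and 34.3%.

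Shared intervals that were a whole NT_UGI region differed from those that were part of a longer one. In RTX_UGI_MMR the whole regions were covered by 80.6% and 70.3% and the partial ones by 57.4% and 40.5%. In the non-treated libraries the order was the opposite, with 50.2% to 51.9% for whole and 61.6% to 62.4% for partial regions. In 5FdUR_UGI the whole regions were at 25.1% and 16.2% and the partial ones at 8.89% and 12.4%. In 5FdUR_UGI_MMR no order was kept, with 5.97% and 8.61% for whole and 5.89% and 12.7% for partial regions. These differences were not tested. The division itself came from the files that chose the intervals, since a partial interval stops where an RTX_UGI region stops. It favours the orders seen in RTX_UGI_MMR and the non-treated libraries. The choosing libraries had the same orders, with 93.6% and 92.2% against 78.0% and 67.5% in RTX_UGI. In NT_UGI it was 76.9% and 64.6% against 85.2% and 72.8%.

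**Figure D3:**
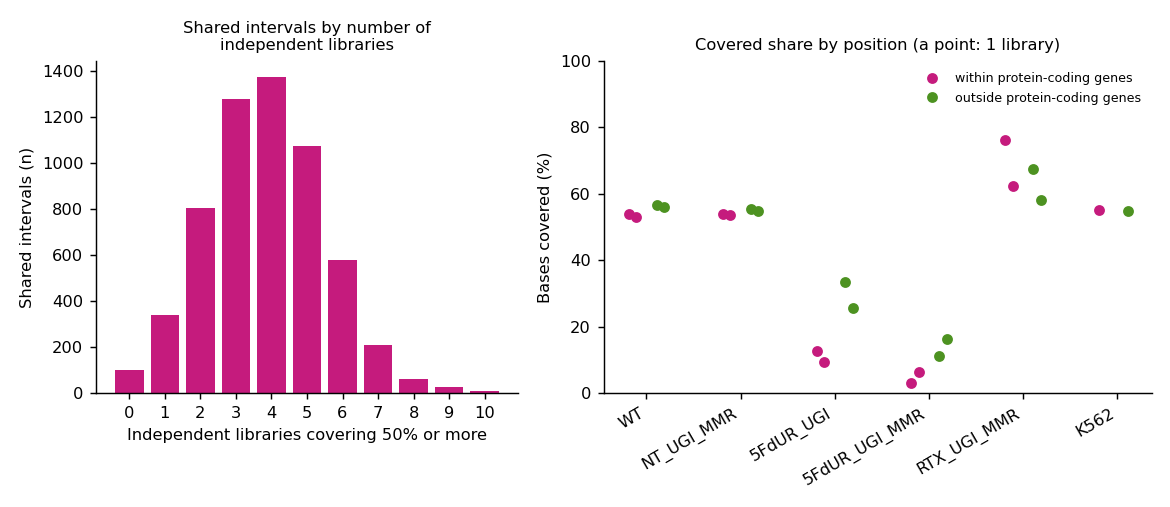
Number of shared intervals by how many of the 10 independent libraries covered at least 50% of their bases (left), and covered share (%) of shared intervals within and outside protein-coding genes in each library (right; a point is 1 library). Most intervals were covered in 2 to 6 libraries, and the order of the 2 positions turns between 5FdUR and RTX_UGI_MMR.

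Among genes, 1718 of 19111 protein-coding genes (8.99%) overlapped a shared interval, with 6.43 kb of shared bases per Mb of gene. PCDH7, a protocadherin of cell adhesion, held most, with 90300 bp in 29 intervals (chr4:30720369-31146805, 21.2% of the gene). PRKACB, a catalytic subunit of protein kinase A, followed with 69400 bp in 15 intervals (chr1:84078062-84238498, 43.3%). LEKR1 had 62900 bp, C2orf88, which encodes a small anchor protein of protein kinase A, 57600 bp, and OLA1, an Obg-like ATPase, 51500 bp. ZBTB20, a transcriptional repressor, had 50900 bp, MSRB3, a methionine sulfoxide reductase, 43130 bp, ROCK2, a kinase that acts on the actin cytoskeleton, 41100 bp, MTHFD2L, a mitochondrial folate enzyme, 38999 bp, and OSBPL8, a lipid transfer protein, 38400 bp.

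These genes had low coverage after 5FdUR and differed from one another in RTX_UGI_MMR. Apart from C2orf88, their shared bases were covered by at most 10.6% in any of the 4 libraries of 5FdUR treated cells. C2orf88 was covered by 20.3% and 29.2% in 5FdUR_UGI and by 0% in both 5FdUR_UGI_MMR libraries. In RTX_UGI_MMR, ROCK2 was covered by 98.3% and 96.6%, OLA1 by 92.2% and 69.7%, C2orf88 by 87.0% and 95.5% and LEKR1 by 86.3% and 84.1%. PCDH7 and ZBTB20 were at 0% in both RTX_UGI_MMR libraries. They had been chosen through RTX_UGI regions, and in the non-treated libraries PCDH7 was at 80.8%, 68.2%, 54.6% and 66.7% and ZBTB20 at 70.3%, 71.9%, 61.3% and 86.4% (WT replicates 1 and 2, then NT_UGI_MMR replicates 1 and 2). MTHFD2L, at 26.7% and 4.62%, lay between.

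Of the gene lists, some lay above and some below the 8.99% of all protein-coding genes, most of them with few genes. None of the 26 genes of thymidylate and dUTP metabolism overlapped a shared interval. Of 12 genes of uracil base excision repair, only MBD4 (8.33%), a glycosylase acting on mismatched uracil and thymine, had one (600 bp), and of 8 mismatch repair genes only MSH3 (12.5%, 1400 bp). Of 24 common fragile site genes, which are long, 3 (12.5%) had shared bases: GPHN with 21500 bp, RAD51B with 9000 bp and DAB1 with 1900 bp. Over all 24 fragile site genes there were 0.922 kb per Mb, below the 6.43 kb per Mb of all genes. Of 496 genes named ZNF, 18 (3.63%) overlapped, ZNF148 most (20500 bp), and of 412 olfactory receptor genes 9 (2.18%). None of 76 cytosolic ribosomal protein genes and none of 13 type II cadherin genes did, and 1 of 72 replication-dependent histone genes, H2BC4, and 4 of 53 clustered protocadherin genes did. The last 4 overlap one another, so they share intervals. Gene length differs widely between these lists and is not accounted for in the counts.

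Some shared intervals lay close together. The next shared interval began within 10 kb in 1965 cases, and the median distance to the next was 27300 bp. Distances in the other 2 sets were not measured, so closeness is not shown to be particular to shared intervals. The 5859 intervals lay in 5492 NT_UGI regions, so some were pieces of the same region. The bin of 100 kb with most shared bases, chr1:84100001-84200000 over PRKACB, held 51400 bp. The next were chr3:156900001-157000000 over LEKR1 with 43400 bp, chr4:30900001-31000000 over PCDH7 with 43200 bp, chr2:181800001-181900000 over ITPRID2 with 40600 bp and chr3:152200001-152300000 over MBNL1, a splicing regulator, with 37300 bp. By chromosome, shared bases were densest on chromosome 12 (7.27 kb per Mb) and chromosome 2 (6.14 kb per Mb), and sparsest on chromosome 16 (0.982 kb per Mb) and chromosome 19 (1.196 kb per Mb). As a share of the NT_UGI regions, chromosomes 22, 15 and 17 were highest, with 15.8%, 12.0% and 11.3% of their NT_UGI bases shared, against 3.83% over all autosomes. As a share of the RTX_UGI regions, chromosome 4 was highest, with 6.76%.

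The same rule was applied to the MMR proficient cells. Bases in both merged files NT_UGI_MMR and RTX_UGI_MMR gave 7722 intervals of 14.7 Mb, with a GC content of 34.2% and 67.6% of their bases in protein-coding genes. They contained 38.9% of the bases shared in MMR deficient cells, and 32.4% of their own bases were shared there. Of the 5859 shared intervals, 2549 (43.5%) had at least 1 stretch of 100 bp in this counterpart. From pairs of single replicate files, 30.6% to 38.4% of the shared bases were contained (SD 4.35 over 4 pairs), and 16.7% when all 4 replicate files had to hold a base. Of the bases in those replicate intersections, 18.9% to 27.4% were shared bases. In MMR deficient cells, intersections of 1 NT_UGI and 1 RTX_UGI replicate measured 12.9 to 18.4 Mb, of which 38.8% to 62.0% were shared bases, but these replicates are part of the merged files that chose the intervals. Which of MMR status, the added chromosome and culture of a separate line goes with the difference cannot be told apart. Without chromosomes 3 and 8 the shared intervals numbered 5099, with 65.2% of their bases in genes.

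Among the 10 longest shared intervals, 8 were AT-rich stretches within genes and 2 were repetitive. The longest in a gene, 24000 bp in PRKACB (chr1:84169201-84193200), was covered by 70.8% and 95% in WT and 100% and 72.1% in NT_UGI_MMR, and by 0% in the 4 libraries of 5FdUR treated cells. In RTX_UGI_MMR it was covered by 78.3% and 0%, so the replicates stood apart there. The interval of 17800 bp in an intron of C2orf88 (chr2:189899701-189917500) was covered by 79.2% and 100% in RTX_UGI_MMR, by 79.2% to 99.4% in the non-treated libraries and by 0% after 5FdUR. The interval of 18000 bp in PCDH7 (chr4:30935801-30953800) was covered by 59.4% to 88.3% in the non-treated libraries and by 0% in RTX_UGI_MMR. The others lay in RALGAPA1 (16000 bp), GLIPR1L2 (14200 bp), LEKR1 (13300 bp), TMTC3 (13100 bp) and ARHGAP29 (12900 bp), and after 5FdUR none of them was covered by more than 17.6%.

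The repetitive intervals differed from these and from each other. The interval of 28400 bp on chromosome 16, whose centre is printed above, was covered by 78.9% to 84.5% in the non-treated libraries, 81.7% and 72.2% in RTX_UGI_MMR, 94.4% and 80.6% in 5FdUR_UGI and 97.5% and 23.9% in 5FdUR_UGI_MMR. It held 123 copies of the word AATATCACAG on either strand, or 4.33 per kb. The interval of 14400 bp at chr7:99584201-99598600 in TMEM225B held 91 copies and was covered by 96.5% to 100% in the non-treated libraries, but by at most 15.97% after 5FdUR. Of the 10 intervals covered in all 10 libraries, 7 were dense in the word, which here means at least 3 copies and at least 1 per kb. Besides the printed one these included chr3:125686801-125693700 (34 copies) and chr3:125735201-125739100 (14 copies). An exception was chr10:124225101-124231400, with no copy, in which 41.9% of the words of 16 bases occurred more than once. None of the 37 intervals covered by under 10% in all 10 libraries was dense in the word. Only 59 of all 5859 shared intervals were dense, and the 37 were short, with 39.9 kb in total. The lack of a dense interval among them therefore does not set them apart. The longest of the 37 lay in introns of ODAD2, RAD51B and MSRB3, of 3000, 2900 and 2300 bp.

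The word was picked by count from the 2 printed intervals after their coverage was seen, so its share among the intervals covered everywhere is a description. The printed interval on chromosome 7 was itself chosen for coverage in all 10 libraries. Coverage of word-dense sequence in these libraries is therefore a description as well. It occurred 125 times per Mb in the shared intervals, 15.3 times in the NT_UGI intervals, 4.15 times in the RTX_UGI intervals and 6.26 times over the autosomes. The share of intervals with any copy was 2.29%, 2.24% and 2.79% in the same 3 sets, so the density came from a few intervals with many copies. In windows of 1400 bp, 2.498% of the centres of 3083 shared intervals held the word, against 0.621% of all windows of that length. Dense shared intervals numbered 59 (287 kb), with the 2 printed ones among them. They were covered by 87.0% to 91.5% in the 4 non-treated libraries, 79.2% and 70.2% in RTX_UGI_MMR, 77.7% and 53.7% in 5FdUR_UGI and 58.1% and 30.9% in 5FdUR_UGI_MMR. In every one of these 10 libraries they were above the other shared intervals, which were covered by 53.2% to 54.1%, 73.1% and 60.6%, 18.6% and 14.1%, and 4.69% and 9.42%.

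Clusters of the word were also taken over all autosomes, whether or not they met a shared interval. Stretches with at least 10 copies no more than 500 bp apart numbered 205 (579 kb in bins of 100 bp), of which 66 held shared bases. They were covered by 81.3% and 79.3% in WT, 78.6% and 86.1% in NT_UGI_MMR and 77.6% in K562, against 11.2% to 11.6% of the autosomes in the same libraries. In RTX_UGI_MMR the share was 30.6% and 24.5%, in 5FdUR_UGI 32.1% and 30.01%, and in 5FdUR_UGI_MMR 53.3% and 34.1%, against 17.6% to 18.9% of the autosomes. The 205 clusters as a set were above the autosomes in all 10 libraries, with the non-treated libraries highest. The word came in part from an interval chosen by coverage in these libraries, so this is a description. Within RTX_UGI_MMR the 66 clusters with shared bases were at 66.9% and 55.8% and the other 139 at 9.54% and 6.38%, a division that the choice of the shared intervals by RTX_UGI regions favours. Reads that map to more than 1 place were removed by the authors, and the depth of the reads left in such repeats was not analysed here.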

How the data were processed

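U-DNA-Seq region files of 15 enriched libraries and 7 merged files were analysed; input and mock samples were not used here. Per the labels and the study's methods, the authors aligned reads to GRCh38 with BWA 0.7.17-r1194, used SAMtools 1.9-50 and Picard, left out reads without a unique place and regions on a blacklist, and calculated coverage in bins of 100 bp, smoothed over 5000 bp, with deepTools 3.2.1. The deposited value column has no name and was taken for the average log2 enrichment over input within a region. The authors set the threshold of each library, which fixes the total length of its regions, and pooled alignments for the merged files. Libraries were sequenced on either of a pair of instruments, and which library went on which is not given in the sources used here. Read depth is not given in the region files, so no counting error is stated and the spread between replicates is the measure of precision.

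Regions were placed on 100 bp bins. Members, gene lists and alternatives were chosen with earlier results of these data known. Tests were two-sided exact permutations over the 10 HCT116 libraries that did not choose the intervals, or of signs within libraries, adjusted by Benjamini-Hochberg over 5 tests. K562 entered no test. Named were the 10 longest intervals, the 5 longest covered by at least 50%, or by under 10%, in all 10 libraries, the 10 genes and 5 bins of 100 kb with most shared bases, and up to 4 genes of a list. Annotation was GENCODE release 44. Python 3.11.15, numpy 2.4.6, pysam 0.24.0, samtools 1.23.1 and matplotlib 3.10.9 were used; scripts were tested on simulated data. Alternatives covered the definition of the intervals, the libraries and the form of the test.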

Additional observations from a re-analysis of the deposited data

Results flagged for a closer look

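The log2 ratio of the covered share of shared intervals to that of the autosomes was below 0 in both 5FdUR_UGI_MMR libraries (mean −1.23) and above 0 in both RTX_UGI_MMR libraries (mean 1.83), 2 drugs in the same MMR proficient line. The difference between the drugs was not tested there, since 2 against 2 libraries cannot pass. The difference in covered share between shared intervals within and outside protein-coding genes was negative in all 4 libraries of 5FdUR treated cells (mean −13.8 percentage points) and positive in both RTX_UGI_MMR libraries (mean 6.49 points), and this difference was not tested either. The K562 library belongs to no comparison of the report, and its regions covered 55.1% of the shared bases against 11.2% of the autosomes. In 15 groups of values examined, no highest or lowest library passed Dixon's limit on its gap to the nearest other. That includes the 9.20% of the NT_UGI intervals covered in 5FdUR_UGI_MMR replicate 2.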

How the results depend on the processing

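Of 162 alternative values, 135 kept their direction and their side of the threshold or stayed within the spread. Some of them could not cross the threshold. The smallest possible exact permutation p was 0.125 for the difference from the NT_UGI intervals and 0.0667 for 5FdUR against RTX_UGI_MMR. With all 4 replicate files choosing the intervals, the log2 ratio of the covered share to that of the autosomes was 1.19 (exact permutation p = 0.0371), the log2 value difference 0.017 (p = 0.0332, exact), the count without overlap 193 and the share in the MMR proficient counterpart 49.2%. With regions of a log2 value of at least 0.4 only, the log2 value difference was 0.028 (exact p = 0.0137), the count 38 and the counterpart share 18.9%. The counterpart share was 16.7% with both replicate files of each condition. With a minimum length of 2000 bp the log2 value difference was 0.0052 and the count 200. Merged files gave a count of 1139 and a difference from the NT_UGI intervals of −10.3 percentage points. Without WT the count was 580. Without 5FdUR_UGI_MMR the log2 ratio was 1.57 (exact p = 0.0234) and the log2 value difference 0.0024. The causes were not tested. The choice of the intervals favours a log2 ratio above 0 in these alternatives and with single libraries left out.

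Leaving out 1 library at a time, the drug difference ranged from −32.1 to −18.6 points, with an exact p = 0.0476 without RTX_UGI_MMR replicate 1. The difference from the NT_UGI intervals ranged from −9.08 to −8.45 points and that from the RTX_UGI intervals from −18.0 to −8.63 points. The log2 ratio ranged from 0.87 to 1.297, with exact p = 0.0273 and 0.0312 without 5FdUR_UGI_MMR replicate 1 and 2, and the log2 value difference from −0.0033 to 0.0032. The count ranged from 379 to 665. The difference of 5FdUR from RTX_UGI_MMR ranged from −60.5 to −48.2 points. Leaving out the 59 intervals dense in the word, an alternative chosen after seeing the data, moved the drug difference to −23.5 points.

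With the replicate number as a replicate block, the drug difference stayed at −23.6 points with an exact permutation p = 0.21 over 100 assignments. Deviations of same-numbered libraries had correlations of −0.058 to 0.056 over 21 pairs of conditions. Whether same-numbered libraries were prepared or sequenced together cannot be told from these correlations. The intervals depend on thresholds chosen by the authors, and region files hold no value below them, so a base outside a region may lie just under the threshold.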
